A study of Ovis aries with 95 samples.

Results

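TF, CX32 and CRYAB are 3 genes that oligodendrocytes, the myelin-forming glia of the brain, are known to express. They were taken as the genes whose probe on the array was named transferrin (TF), connexin 32 (CX32, gene GJB1) or alpha B-crystallin (CRYAB). Each had 1 probe in 1 spot, so the 3 genes are 3 of the 15008 gene probes of the array, and no averaging over probes was needed. They were chosen by their measured increase toward birth, which was already known, so their differences between ages are given as a description with no test, and only differences between brain regions were tested.

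The study followed the brain of fetal sheep from mid gestation to birth. On 95 arrays of 1 colour it measured RNA of frontal cortex, brainstem, hippocampus and hypothalamus from fetuses labelled 80, 100, 120, 130 and 145 d gestation and from newborn lambs aged 1 d, with 4 arrays in each of 24 groups except hippocampus at 100 d, which had 3. Ages are those of the labels. Per the methods the 100 d and 145 d groups each span a few days, and the fetuses labelled 145 d were slightly younger than that. The labels name no treatment, and per the methods no ewe showed signs of coming labor. The methods state that every age included a pair of twins and that the 4 regions were dissected from the same brains, but the labels mark neither, so that all arrays were treated as independent samples and p values measure the spread between arrays. Each region was hybridized on its own slides (14 slides and 6 scan days in all). A difference in level between regions and a difference between their slides therefore cannot be told apart. Ages were spread over the slides of a region, but in hippocampus only in part. There slide 10, scanned on another day than the rest, carried no 80 d array, and slide 8 carried none of 100, 130 or 145 d. In hypothalamus replicate 4 at 120 d lay alone on slide 14. Between 59.5% and 88.5% of the gene spots of an array were well above background. A level is the log2 of a background-corrected and quantile-normalized intensity, and a difference of 1 in level is a 2-fold difference. Levels of different genes cannot be compared on this array.

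Oligodendrocytes arise from migrating precursors, stop dividing and wrap axons with myelin, and in the mammalian brain this proceeds from the brainstem toward the forebrain. Transferrin carries iron, which the enzymes of lipid synthesis in myelinating cells need, and it is also made by liver and choroid plexus. Connexin 32 forms gap junction channels within myelin and between glial cells. Alpha B-crystallin is a small heat shock protein that holds unfolding proteins in solution and is found in glia, lens and muscle.

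The probes are shown because the identity of the 3 genes rests on them. TF and CX32 were named by the array design from expressed sequence tags, and CRYAB from a reference mRNA. The probes are 60 bases long. Each of the 3 probes has 1 reading frame without a stop codon over its whole length, which by itself does not identify a gene. The CRYAB probe is printed to the first stop codon in the frame of its first base, which is in capitals. Of the TF probe the first 30 bases are printed.
TF: gccctcacaatttggtggtggcgcctctgc
CX32: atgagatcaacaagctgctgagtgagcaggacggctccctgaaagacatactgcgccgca
CRYAB: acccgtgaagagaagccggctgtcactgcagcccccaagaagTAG

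The 3 genes were higher near birth than at 80 d in all 4 regions. The newborn level exceeded the level at 80 d by 5.27 (log2, mean of the 4 regions) for TF, by 1.85 for CX32 and by 4.25 for CRYAB. In all 12 combinations of gene and region every array at 145 d, and every newborn array, lay above every array at 80 d. For single genes that pattern was common in cortex and brainstem and less so elsewhere: in the comparison of the newborn with 80 d it held for 16.2% of all genes in brainstem, 15.5% in cortex, 9.18% in hypothalamus and 5.7% in hippocampus, and in that of 145 d with 80 d for 22.0%, 15.3%, 7.28% and 6.53% in the same order. From 100 d to 120 d, where 9 of the 12 combinations were separate, it held for 5.8%, 5.73%, 4.3% and 1.09%, and from 145 d to the newborn, where none of the 12 was, for 5.19%, 1.47%, 6.69% and 0.679%. The genes were chosen for the difference over age, so nothing is read from the counts.

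**Figure D1:**
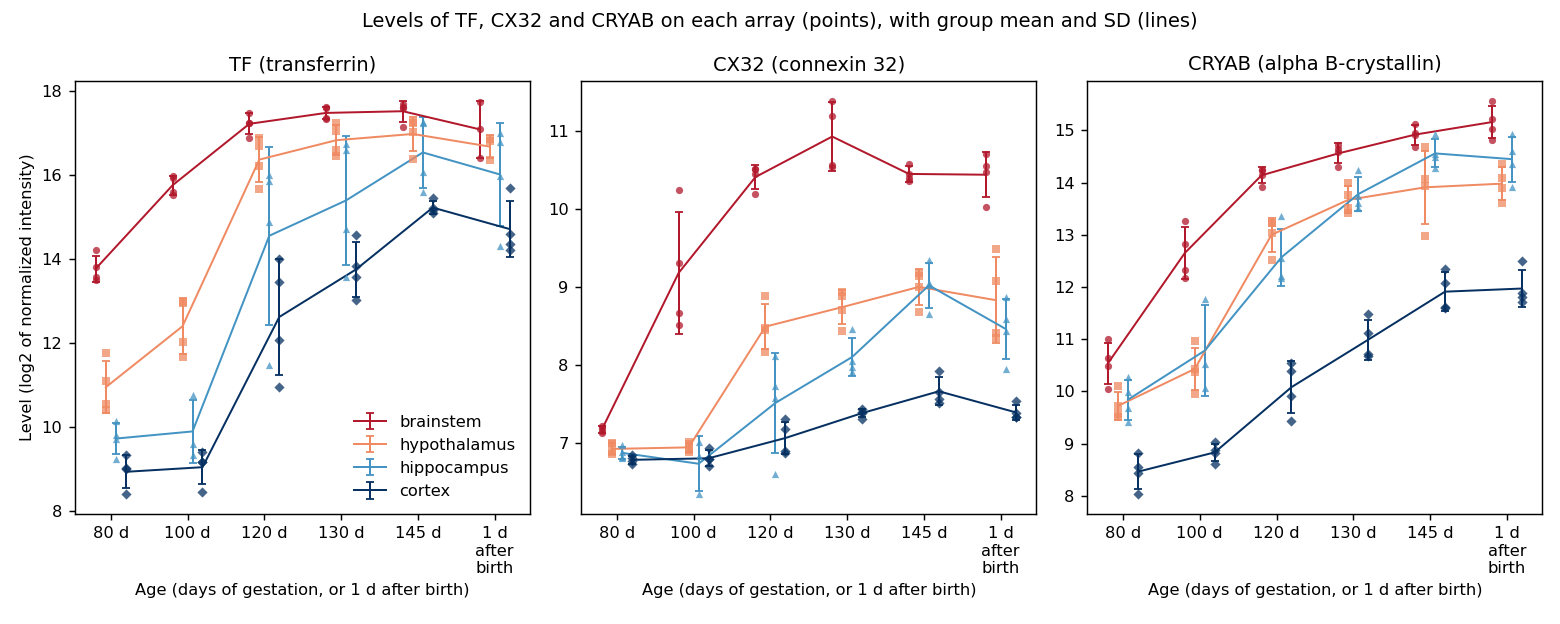
Level of TF, CX32 and CRYAB (log2 of normalized intensity) on each of the 95 arrays against age, with 1 panel per gene and colours and symbols for the regions. Lines join group means and bars are SD. Brainstem has the highest mean of the 4 regions at every age for all 3 genes, and the largest step between successive ages comes earliest there.

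TF had already a high level in brainstem at the first age examined. The 4 brainstem arrays at 80 d read 13.50, 13.58, 13.80 and 14.20, and those at 100 d read 15.53, 15.60, 15.93 and 15.96. The increase continued to 17.21 ± 0.25 (SD, n = 4) at 120 d. Later means differed less, with 17.47 ± 0.15 at 130 d, 17.51 ± 0.25 at 145 d and 17.08 ± 0.67 (n = 3) at 1 d after birth. Brainstem at 80 d was therefore at a level that cortex reached between 130 d (13.75 ± 0.65) and 145 d (15.22 ± 0.15). No spot of the 3 genes was saturated on any of the 95 arrays, but in brainstem at 145 d the TF spot ranked on average above 99.9% of the gene spots of its array, and the brightest gene spot of every array stood at 18.46 after quantile normalization. The part of this upper end in the size of the brainstem differences was not tested.

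In cortex and hippocampus TF was about as low at 100 d as at 80 d and then increased in 1 large step. Cortex arrays read 8.47, 9.17, 9.17 and 9.40 at 100 d and 10.96, 12.07, 13.46 and 14.00 at 120 d. Hippocampus arrays read 9.35, 9.60 and 10.76 at 100 d, and at 120 d 1 array read 11.47 and the other 3 read 14.88 or more. In neither region did the ages overlap, although at 120 d the arrays of a group differed from each other more than at any other age of the region. Hypothalamus was ahead of both, with 11.66, 12.02, 12.95 and 12.97 at 100 d and 15.67, 16.22, 16.69 and 16.88 at 120 d. The step from 100 d to 120 d was 3.57 in cortex, 4.65 in hippocampus and 3.96 in hypothalamus, and it was the largest of the 5 steps between successive ages in each of them. In hippocampus the arrays of 100 d and 120 d shared a single slide, where TF read 9.35 at 100 d and 11.47 and 15.86 at 120 d. Brainstem had its largest step, 1.98, between 80 d and 100 d.

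Near birth TF was at its highest. At 145 d the cortex arrays read 15.09, 15.16, 15.20 and 15.44, which is 77.9-fold above the mean at 80 d, and the hippocampus arrays read 15.58, 16.07, 17.22 and 17.26, which is 112-fold above it. The fold over 80 d was 64.8 in hypothalamus and 13.3 in brainstem, the region that started highest. With the processed signal the log2 change in brainstem was 4.38 in place of 3.73, and that from 80 d to the newborn 4.20 in place of 3.30. The newborn mean lay below that at 145 d in each region, by log2 differences of -0.53 in hippocampus, -0.51 in cortex, -0.43 in brainstem and -0.30 in hypothalamus, and in each the arrays of the 2 ages overlapped. Leaving out 1 array at a time gave -0.85 to 0.04 in hippocampus and -0.84 to -0.34 in cortex. It gave -0.76 to -0.09 in brainstem and -0.49 to -0.14 in hypothalamus, so in hippocampus the sign depended on a single array. The TF spot of 1 newborn brainstem array and 1 newborn hypothalamus array carried an outlier mark of the scanner software and was left out, so that these groups have 3 arrays. The left-out brainstem spot would have read 17.02, near its group, and the left-out hypothalamus spot 14.91, against 16.36, 16.80 and 16.86 on the other 3 arrays.

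A further probe, designed from another expressed sequence tag, is listed in the files with the same contig as the TF probe but not under that name, and was not counted as TF. In cortex it read 6.93 ± 0.15 at 80 d and 11.11 ± 0.43 in the newborn (SD, n = 4). On the newborn hypothalamus array whose TF spot was left out it read 6.85, the lowest of a group whose highest array read 13.26.

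CX32 was near background at 80 d and reached its highest levels in brainstem. At 80 d the 16 arrays of the 4 regions lay between 6.73 and 7.22, and 2 of the 4 cortex arrays were not well above background there. In brainstem the arrays read 8.51, 8.67, 9.31 and 10.24 at 100 d, 10.19, 10.45, 10.51 and 10.51 at 120 d and 10.54, 10.57, 11.20 and 11.39 at 130 d. From 120 d on every brainstem array was above every array of the other regions, the highest of which read 9.49. The brainstem mean, 10.93 ± 0.44 at 130 d, was 10.45 ± 0.10 at 145 d and 10.44 ± 0.29 in the newborn (SD, n = 4).

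In hypothalamus CX32 was as low at 100 d as at 80 d, at 6.94 ± 0.06 and 6.92 ± 0.07, and then read 8.17, 8.45, 8.47 and 8.88 at 120 d. With the background correction used here hippocampus was later, with 6.60, 7.58, 7.73 and 8.11 at 120 d. Its largest step, 0.92, fell between 130 d and 145 d, when the arrays read 8.65, 9.03, 9.05 and 9.35. Cortex had the smallest difference. Its arrays read 7.51, 7.56, 7.65 and 7.92 at 145 d and 7.33, 7.33, 7.38 and 7.54 at 1 d after birth, 1.84-fold and 1.53-fold above the mean at 80 d, with a log2 difference of -0.27 between the newborn and 145 d. These differences of a dim probe depend on the background correction. With the scanner software's processed signal, which adds no offset, the newborn cortex level was 2.35 above that at 80 d in place of 0.61, and the mean over the 4 regions was 3.45 in place of 1.85. With a smaller offset of 16 that mean was 2.24. The timing in hippocampus depends on the correction as well. With the processed signal its step from 100 d to 120 d was 2.40 in place of 0.78. Its change from 80 d to 145 d was then 4.29 in place of 2.15.

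The mean of CRYAB was higher at each fetal age than at the one before in all 4 regions. In brainstem it read 10.05, 10.49, 10.63 and 11.00 at 80 d, 12.17, 12.33, 12.83 and 13.27 at 100 d and 13.92, 14.15, 14.24 and 14.25 at 120 d. The means that followed were 14.56 ± 0.19 at 130 d, 14.92 ± 0.19 at 145 d and 15.16 ± 0.31 in the newborn (SD, n = 4), the last 24.5-fold above 80 d. The CRYAB spot of 1 newborn brainstem array, the one that read 15.57, lies in a bright area. The spots around it lay by a median of 0.51 above the other arrays of the group. On that array, replicate 4, 5781 gene spots lie in areas that deviated by over 0.5 in either direction, the most of any array. TF read 16.40 there, the lowest of its group. Leaving out spots in such areas moved no difference of the 3 genes by more than the spread between arrays.

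Hippocampus went from 9.84 ± 0.38 at 80 d to 10.78 ± 0.87 (n = 3) at 100 d, 12.57 ± 0.55 at 120 d, 13.78 ± 0.32 at 130 d and 14.56 ± 0.27 at 145 d. Hypothalamus started at 9.72 ± 0.27, took its largest step, 2.57, from 100 d (9.95, 10.38, 10.42 and 10.96) to 120 d (12.52, 13.03, 13.22 and 13.22) and ended at 13.98 ± 0.31. In cortex CRYAB was lowest at every age. Its arrays read 8.03, 8.44, 8.55 and 8.82 at 80 d, 9.43, 9.92, 10.39 and 10.55 at 120 d, 11.59, 11.62, 12.07 and 12.35 at 145 d and 11.71, 11.80, 11.89 and 12.49 at 1 d after birth. The newborn level was 11.4-fold above that at 80 d, and it overlapped with the level at 145 d, as in the other 3 regions.

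Timing was compared as the share of the log2 difference between 80 d and 1 d after birth that a region had covered. At 100 d brainstem had covered 60.0% of its difference for TF, against 25.4% in hypothalamus, 2.78% in hippocampus and 1.90% in cortex. For CRYAB at 100 d brainstem had covered 45.7%, and the other 3 regions between 10.4% and 20.3%. At 120 d the shares for CRYAB were 77.9% in brainstem, 76.9% in hypothalamus, 59.2% in hippocampus and 46.0% in cortex. For CX32 at 120 d they were 99.2%, 82.1%, 39.9% and 45.0% in the same order. These CX32 shares depend on the background correction of a dim probe. With the processed signal the hippocampus step from 100 d to 120 d was 2.40 in place of 0.78. CX32 went beyond its newborn level at 145 d in hippocampus (135%) and cortex (143%), where the small difference makes the share sensitive to the spread of few arrays. The largest step fell between 80 d and 100 d for all 3 genes in brainstem and between 100 d and 120 d for all 3 in hypothalamus.

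**Figure D2:**
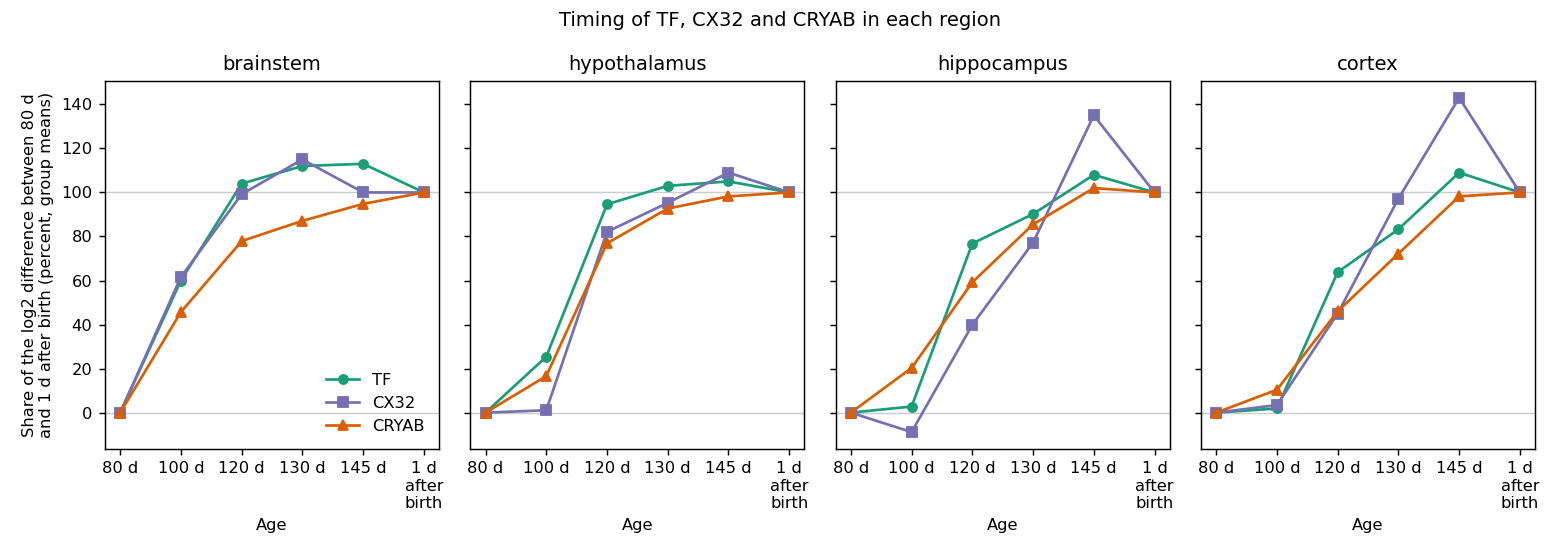
Share of the log2 difference between 80 d of gestation and 1 d after birth (percent, computed from group means) reached at each age, with 1 panel per region and 1 line per gene. At 120 d TF stands at 104% in brainstem, 94.6% in hypothalamus, 76.8% in hippocampus and 63.8% in cortex.

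Within a region ages shared slides, in hippocampus only in part, and the differences between 80 d and 145 d held on single slides. On the slides that carried both 80 d and 145 d arrays, TF was higher at 145 d by up to 6.92 in cortex, by 2.94 to 4.09 in brainstem, by 6.74 and 7.97 on 2 slides of hippocampus and by 5.49 to 6.72 in hypothalamus. CX32 was higher by 0.76 to 0.91 in cortex and by 3.17 to 3.34 in brainstem, and CRYAB by 2.77 to 3.66 in cortex and by 4.19 to 4.86 in brainstem.

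The regions differed in the level of the 3 genes at most ages. In a limma fit over all 95 arrays, the F test over the 4 regions passed (Benjamini-Hochberg adjusted p under 0.05) for TF and CRYAB at all 6 ages and for CX32 at 5, that is at each age but 80 d. Of all genes tested, 23.4% passed at 80 d, 21.3% at 100 d, 23.1% at 120 d, 31.8% at 130 d, 33.0% at 145 d and 26.9% at 1 d after birth. The range of the region means of TF was 4.83 at 80 d (adjusted p = 2.81e-10) and 6.70 at 100 d (4.17e-16), against 2.28 at 145 d (0.00537) and 2.37 in the newborn (0.00806). That of CX32 widened from 0.39 at 80 d (0.53) to 3.55 at 130 d (2.79e-22), and that of CRYAB was between 2.08 at 80 d (1.16e-07) and 4.06 at 120 d (1.84e-19). With the slide as a random block each of these calls held, with adjusted p = 0.0172 for TF at 145 d and 0.0258 at 1 d after birth. In a fit on the newborn arrays alone the F test of TF did not pass (adjusted p = 0.0723), and that of CX32 at 80 d did pass in a fit on the 80 d arrays alone (0.00168) and with the processed signal (range 2.04, 3.94e-05). Brainstem had the highest mean in all 18 combinations of gene and age and cortex the lowest in 17, the exception being CX32 at 100 d, which was lowest in hippocampus. Normalizing within each region, which removes the common scale of the regions, left 17 and 12 of these 18. In whole tissue, more cells of a type and more RNA per cell cannot be told apart.

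**Figure D3:**
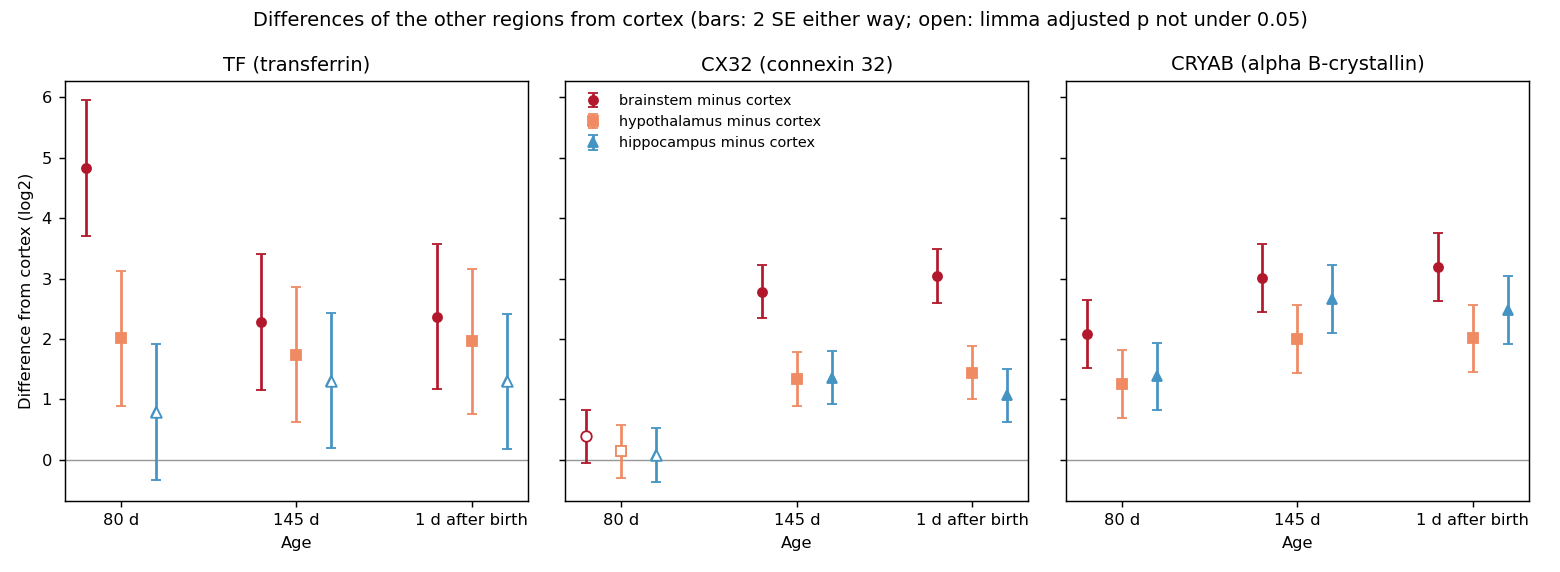
Difference in level (log2) of brainstem, hypothalamus and hippocampus from cortex for each gene at 80 d, 145 d and 1 d after birth, from 1 limma fit over 95 arrays. Bars reach 2 SE either way and open symbols did not pass an adjusted p of 0.05. For brainstem, the TF difference is 4.83 at 80 d and 2.37 in the newborn, and the CX32 difference 0.39 and 3.04.

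Pairs of regions were compared at 80 d, 145 d and 1 d after birth, and 30 of the 54 comparisons passed (28 with the slide as a random block). Brainstem against cortex was the contrast in which most genes of the array passed, 14.2% at 80 d, 21.1% at 145 d and 19.8% in the newborn. CRYAB was higher in brainstem by 2.08 ± 0.28 (SE) at 80 d (limma adjusted p = 1.35e-08), by 3.01 ± 0.28 at 145 d (3.07e-14) and by 3.19 ± 0.28 at 1 d after birth (3.76e-15). TF was higher by 4.83 ± 0.56 at 80 d (1.54e-10), 2.28 ± 0.56 at 145 d (0.00133) and 2.37 ± 0.60 at 1 d after birth (0.00232).

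CX32 was higher in brainstem than in cortex by 2.78 ± 0.22 at 145 d (limma adjusted p = 4.4e-17) and by 3.04 ± 0.22 at 1 d after birth (5.16e-19). At 80 d the brainstem arrays, 7.12 to 7.22, all lay above the cortex arrays, 6.73 to 6.84, but the difference of 0.39 ± 0.22 did not pass (adjusted p = 0.277, interval of 2 SE from -0.05 to 0.82). In a fit on the arrays of 80 d alone the same difference passed (adjusted p = 0.000497), and with the processed signal it was 2.04 (adjusted p = 8.47e-06).

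Hippocampus and hypothalamus mostly lay between the other 2 regions. Of all genes, hippocampus against cortex passed for 6.27% at 80 d, 13.3% at 145 d and 8.58% in the newborn, hypothalamus against cortex for 10.6%, 17.5% and 9.55%, hippocampus against brainstem for 11.5%, 8.34% and 10.7%, hypothalamus against brainstem for 8.96%, 6.35% and 10.6%, and hypothalamus against hippocampus for 4.73%, 13.3% and 3.27%. For CRYAB hippocampus exceeded cortex by 1.38 ± 0.28 at 80 d (limma adjusted p = 0.000358), 2.66 ± 0.28 at 145 d (3.67e-11) and 2.48 ± 0.28 at 1 d after birth (3.48e-10), and hypothalamus exceeded it by 1.26, 2.00 and 2.01 (0.0008, 6.63e-08 and 7.62e-08). With normalization within each region neither difference at 80 d passed (0.20 in hippocampus, adjusted p = 0.488, and 0.29 in hypothalamus, 0.332). For CX32 the hippocampus exceeded cortex by 1.36 ± 0.22 at 145 d (5.46e-06) and the hypothalamus by 1.34 ± 0.22 (3.45e-06), while the 2 regions differed from each other by -0.02 ± 0.22 (interval from -0.46 to 0.42). With normalization within each region the differences of CX32 from cortex at 145 d did not pass (0.28 in hippocampus, adjusted p = 0.208, and 0.44 in hypothalamus, 0.0512), nor did that of the newborn hippocampus (0.08 in place of 1.07, 0.731). At 145 d both were below brainstem for CX32, with differences of -1.43 in hippocampus (1.4e-06) and -1.45 in hypothalamus (2.7e-06). For CRYAB at 145 d hippocampus and brainstem differed by -0.36 ± 0.28, which did not pass (interval from -0.91 to 0.20, adjusted p = 0.527). The difference in CRYAB of hypothalamus from brainstem was -0.82 at 80 d (0.0461), -1.01 at 145 d (0.0151) and -1.17 in the newborn (0.00285). The first of these did not pass with the slide as a random block (0.0911), with the processed signal (0.148) or without any 1 of brainstem replicates 1, 2 and 4 and hypothalamus replicates 1, 3 and 4 (0.0781 to 0.188). The second did not pass with the processed signal (0.174), in a fit on that age alone (0.0634), without brainstem replicate 1 (0.0564) or without hypothalamus replicate 3 (0.14).

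For TF no pair of neighbouring regions in the order of levels passed near birth. In the newborn the difference of hippocampus from cortex, 1.30 ± 0.56, did not pass (0.14), but it did without hippocampus replicate 3 (1.86, 0.0417) and with the processed signal (1.66, 0.0219). At 145 d the difference of hypothalamus from brainstem was -0.54 ± 0.56 (interval from -1.65 to 0.57, limma adjusted p = 0.659), that of hypothalamus from hippocampus 0.44 ± 0.56 (-0.68 to 1.55, 0.66), and that of hippocampus from cortex 1.31 ± 0.56 (0.20 to 2.42, 0.107), the last passing with the processed signal (1.71, adjusted p = 0.0132) and in a fit on the arrays of that age alone (0.0168). Hypothalamus exceeded cortex by 1.74 ± 0.56 at 145 d (0.0197) and by 1.96 ± 0.60 at 1 d after birth (0.0232). Neither passed in the authors' series table (adjusted p = 0.111 and 0.119) or with normalization within each region (0.169 and 0.108), and the newborn difference did not pass with the slide as a random block (0.0596) or without any 1 of 5 arrays, cortex replicates 1, 2 and 3 and hypothalamus replicates 2 and 4 (0.0519 to 0.0873). Without hypothalamus replicate 2 the difference at 145 d had an adjusted p of 0.0506. At 80 d brainstem was above each other region in TF, hypothalamus differing from it by -2.82 (0.000221) and hippocampus by -4.04 (8e-08).

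The change from 80 d to 145 d differed between regions for 2 of the 3 genes. In TF it was 3.73 in brainstem, 6.28 in cortex, 6.02 in hypothalamus and 6.80 in hippocampus (interaction F in limma, adjusted p = 0.0165, and 0.00377 with the slide as a fixed block), the smallest being in the region with the highest start. For the further probe of the TF contig the changes were 3.94, 4.35, 5.50 and 5.07 in the same order, with no test given. In CX32 the change was 3.28, 0.88, 2.08 and 2.15 in the same order (interaction F in limma, adjusted p = 3.64e-07). With the processed signal the CX32 changes were 4.42, 2.81, 3.74 and 4.29 and the difference between regions did not pass (adjusted p = 0.0649), so that for this dim probe the call depends on the background correction. In CRYAB the changes were 4.38, 3.45, 4.19 and 4.72, and their difference did not pass (adjusted p = 0.1, range 1.27), except with normalization within each region (adjusted p = 0.0249). Of all genes 10.5% passed this test. From 145 d to 1 d after birth no difference between regions in the change passed for the 3 genes (adjusted p = 1 for each, unadjusted p from 0.349 to 0.992), and 0.0438% of all genes passed.

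Over 93 arrays the deviations of TF and CX32 from the mean of their group correlated with r = 0.42, and within regions with r = 0.66 in cortex, 0.58 in hippocampus, 0.36 in hypothalamus and 0.24 in brainstem. With the processed signal r over all regions was 0.16. The 2 values of a point come from the same array. The relation leans on 1 array, hippocampus at 120 d, replicate 4, where TF read 11.47 and CX32 6.60 while the other 3 arrays of the group read at least 14.88 and 7.58. CRYAB, at 12.55 on that array, was within the range of its group. This array had the lowest share of gene spots well above background of the 95, 59.5%, against 74.9% to 76.4% on the other 3 arrays of the group, and the part of this in its low TF and CX32 values was not tested. Without the array r was 0.26 over all regions and 0.23 in hippocampus. CX32 and CRYAB correlated with r = 0.33 over 95 arrays, TF and CRYAB with r = 0.09. By region, r of TF and CRYAB was 0.69 in cortex, 0.28 in hypothalamus, -0.17 in hippocampus and -0.30 in brainstem, and r of CX32 and CRYAB was 0.67, 0.19, 0.33 and 0.41 in the same order.

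**Figure D4:**
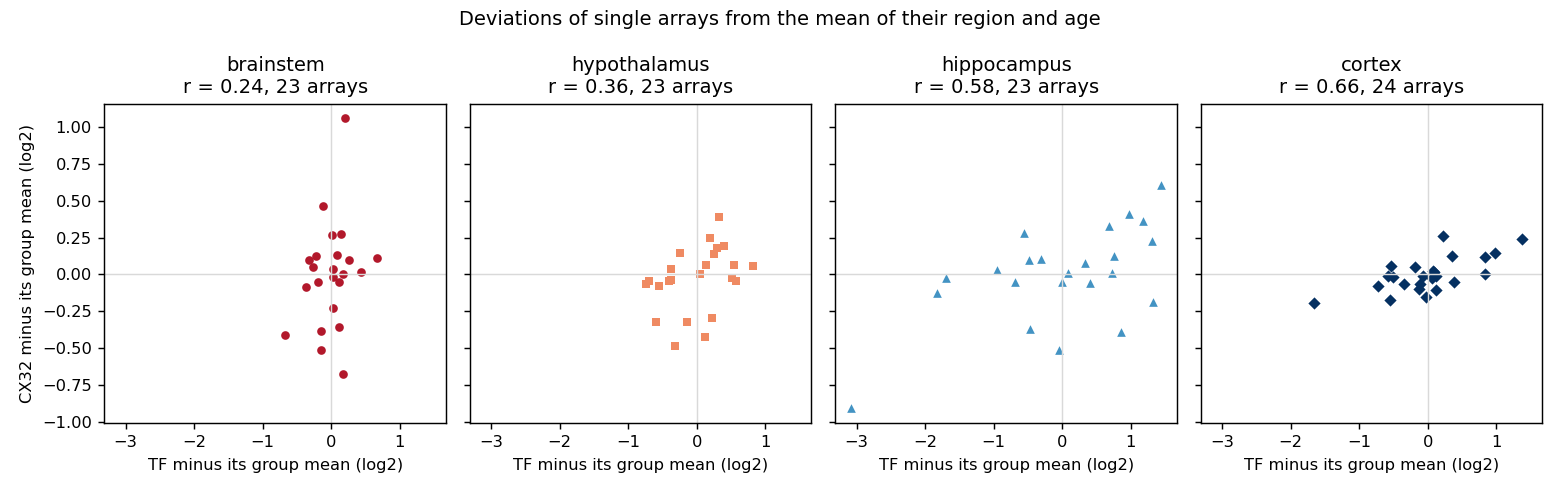
Deviation of each array from the mean of its region and age, TF on the x axis and CX32 on the y axis (log2), with 1 panel per region. The hippocampus array at the lower left is replicate 4 at 120 d, and r is 0.58 in hippocampus with it and 0.23 without it.

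The courses of the genes over the arrays of a region were compared by correlation. The 3 genes were chosen for their common increase, so their nearness to each other is part of that choice. By the mean of the 4 within-region correlations over the 23 or 24 arrays of each region, CRYAB was number 7 and CX32 number 9 in nearness to TF among 12319 genes (r = 0.933 and 0.930), and the further probe of the TF contig was the nearest (r = 0.971). All of these correlations contain the increase with age. Among 837 genes with a symbol, the 3 genes themselves left out, the nearest to each of the 3 was NKX6.1, a homeodomain transcription factor, with r = 0.927 to TF, 0.920 to CX32 and 0.941 to CRYAB. LPAR1, a lysophosphatidic acid receptor, followed for TF (0.917) and CX32 (0.892). PTGDS, the lipocalin-type prostaglandin D2 synthase, FBXO32, an F-box protein of ubiquitin ligases, and CYP2J, a cytochrome P450, were among the 5 nearest of all 3 genes, with r from 0.843 to 0.905. MT3, a metallothionein, completed the 5 of CRYAB (0.897).

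The label of the 3 genes as oligodendrocyte genes could be checked only in part. The defining myelin genes such as MBP, MOG and MAG were not analysed here, because no probe carried their names in the naming used. The paper itself reports that MBP correlated strongly and positively with fetal age in every region. It also reports a rise of MBP by RT-PCR in cortex. Of a list of 54 oligodendrocyte and myelin genes, 4 had a named probe here. From 80 d to 1 d after birth (limma within each region) all 4 rose in cortex, 3 in brainstem, 3 in hypothalamus and 1 in hippocampus, and none fell, while 19.8%, 21.8%, 8.16% and 2.37% of all genes rose in these regions. Their median change was 2.33 in hypothalamus, 1.64 in brainstem, 1.23 in cortex and 0.97 in hippocampus, against -0.03 to 0.03 over all genes. From 80 d to 145 d, where 18.7% of all genes rose in cortex, 17.0% in brainstem, 5.69% in hypothalamus and 2.12% in hippocampus, 3 of the 4 rose in each of cortex and brainstem and 2 in each of the other regions. PTGDS rose from 80 d to 1 d after birth in all 4 regions, by 5.46 ± 0.19 (SE) in cortex (adjusted p = 1.54e-14), 4.33 ± 0.40 in hippocampus (1.45e-06), 3.12 ± 0.19 in hypothalamus (1.58e-09) and 2.08 ± 0.20 in brainstem (1.46e-07). LPAR1 rose by 1.29 in cortex, 1.80 in brainstem and 2.65 in hypothalamus (adjusted p of at most 4.01e-07), and in hippocampus its difference was 1.64 ± 0.53 (0.0817). CD9, a tetraspanin of many cell types, rose by 1.17 to 2.01 in the same 3 regions. NKX2.2, a transcription factor of oligodendrocyte precursors, rose in cortex (0.51 ± 0.10, adjusted p = 0.00025), and its differences in the other regions, between -0.02 and 0.42, did not pass.

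**Figure D5:**
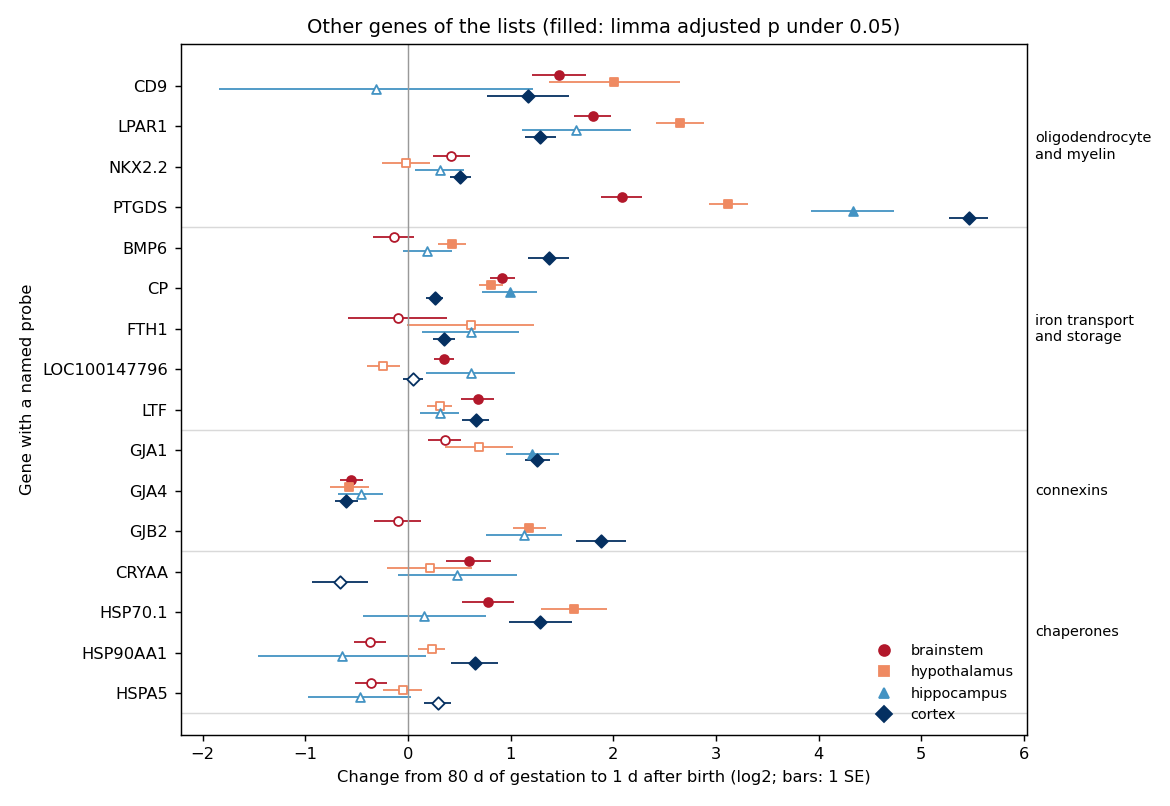
Change from 80 d of gestation to 1 d after birth (log2, bars 1 SE) of the genes with a named probe in the lists of oligodendrocyte and myelin genes, iron transport and storage, connexins and chaperones, by region. Filled symbols passed a limma adjusted p of 0.05. CP was not well above background at 80 d outside brainstem. PTGDS has the widest changes, from 2.08 in brainstem to 5.46 in cortex.

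Of 28 listed genes of iron transport and storage beside TF, 5 had a named probe. In cortex 4 rose, in brainstem 3, in hypothalamus 2 and in hippocampus 1, and none fell, with median changes of 0.35, 0.35, 0.43 and 0.61. Of all genes 19.8%, 21.8%, 8.16% and 2.37% rose in the same order. CP, the ferroxidase ceruloplasmin, rose by 0.92 in brainstem (adjusted p = 5.75e-06). It also passed in the other 3 regions, but there it was not well above background on any array at 80 d, so no size is given. FTH1, the ferritin heavy chain, passed in cortex, with 16.90 ± 0.14 at 80 d and 17.25 ± 0.14 in the newborn (SD, n = 4, limma adjusted p = 0.0114), and its differences elsewhere were between -0.10 and 0.61.

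Of 22 connexins and pannexins 3 had a named probe. GJA4, a connexin of vessels, fell in cortex (-0.60, adjusted p = 0.000175), brainstem (-0.55, 0.00062) and hypothalamus (-0.57, 0.0382), where 25.0%, 21.2% and 9.88% of all genes fell (3.38% in hippocampus). GJA1, the main connexin of astrocytes, rose in cortex (1.26) and hippocampus (1.21), and GJB2 rose in cortex (1.88) and hypothalamus (1.18). In brainstem, the region with the highest level of CX32, the differences of GJA1 and GJB2 were 0.36 ± 0.16 (adjusted p = 0.0786) and -0.10 ± 0.23 (0.764).

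Of 31 listed chaperones, 4 had a named probe. They rose in 5 of the 16 tests of gene and region and fell in none (at an adjusted p under 0.05). Of all genes 19.8% rose in cortex, 21.8% in brainstem, 8.16% in hypothalamus and 2.37% in hippocampus. HSP70.1, an inducible heat shock protein, rose in cortex (1.29 ± 0.31, adjusted p = 0.00155), brainstem (0.78 ± 0.25, 0.0181) and hypothalamus (1.62 ± 0.32, 0.001). CRYAA, the crystallin nearest to CRYAB in kind, rose in brainstem (0.59 ± 0.22, 0.0365), and its difference in cortex was -0.66 ± 0.27 (0.0513). The medians of the list were 0.47 in cortex, 0.22 in hypothalamus, 0.11 in brainstem and -0.16 in hippocampus. From 80 d to 145 d the list had 2 falls in brainstem, HSP90AA1 (-0.80, adjusted p = 0.000431) and HSPA5 (-0.55, 0.0081), and 1 fall in cortex, CRYAA (-0.72, 0.0372), where 20.5% and 22.7% of all genes fell (8.46% in hypothalamus and 2.43% in hippocampus).

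Markers of other cell types were read beside the 3 genes, and their part in the differences was not tested. From 80 d to 1 d after birth, 19.8% of all genes rose in cortex, 21.8% in brainstem, 8.16% in hypothalamus and 2.37% in hippocampus. In the same order 25.0%, 21.2%, 9.88% and 3.38% fell, and the counts of marker genes stand beside these shares. Of 15 astrocyte genes 7 had a named probe, and 7 rose in cortex, 5 in hippocampus, 3 in brainstem and 3 in hypothalamus, where 1 fell. The median over arrays of the astrocyte genes' summed level (log2) was 15.09 at 80 d and 16.26 in the newborn in cortex, and 15.89 and 16.68 in brainstem. The 2 measured of 14 microglia and myeloid genes, CD14 and ITGAM, rose in cortex, brainstem and hypothalamus. Of 11 endothelial genes 7 had a probe, with 2 rising and 1 falling in cortex and at most 1 call elsewhere. Of 11 erythroid genes 2 were measured, with 1 fall in brainstem, and of 16 neuronal genes none had a named probe.

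Choroid plexus and plasma protein genes bear on TF, and muscle and lens genes on CRYAB. Of 13 choroid plexus genes 3 were measured (TTR, AQP1 and IGFBP2, with AQP1 not well above background on any 80 d array of cortex, hippocampus and hypothalamus), with group medians of their summed level between 15.69 and 17.93 in brainstem and between 13.48 and 14.57 in cortex. From 80 d to 1 d after birth IGFBP2 fell in cortex and brainstem, and none of the 3 rose in any region (adjusted p under 0.05). TTR, transthyretin, was 17.85 ± 0.81 (n = 3) in brainstem and 10.86 ± 1.91 (n = 4) in cortex at 80 d, and deviations of TF and TTR from the group means correlated with r = 0.01 over 89 arrays and with r between -0.46 in brainstem and 0.44 in cortex within regions. Of 13 liver and plasma protein genes, TTR included, 6 were measured, with 2 rising in cortex, 1 rising in hypothalamus and 2 falling in brainstem. Of 16 muscle and lens genes 2 were measured. MB, myoglobin, rose in cortex (0.74, adjusted p = 5.2e-07), and CRYAA rose in brainstem as given above.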

How the data were processed

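Total RNA was labeled with Cy3 and hybridized by the authors to 8 x 15K sheep arrays of 1 colour. Each array has a deposited file with the mean intensity, local background intensity and processed signal of its spots from Agilent Feature Extraction (10.1.1.1 per the file headers), before normalization between arrays. A series table of log2 values deposited by the authors served as an alternative, and each of its 95 columns matched its own array best (slopes 0.957 to 0.989, column medians 9.04 to 9.1). Their exact background correction is not stated in the sources used here.

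Mean and background intensities were corrected by normexp (offset 50, which narrows changes of dim probes) and quantile normalized over all arrays in limma 3.58.1 (R 4.3.3). Of 536 control spots, all were left out after background correction, and gene spots with an outlier mark were left out on their array. Probes stayed in a test if on 4 or more arrays their level exceeded 1.1 times the percentile 95 of 77 negative control spots (over all arrays for region tests, over those of the region for age tests). Symbols came from the files and, by accession, from RefSeq genes (assembly ARS-UI_Ramb_v3.0), and 89.6% of 15008 probes had none. On arrays, signal over background and the number of arrays limit the precision.

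Regions were compared with limma (lmFit, eBayes) in 1 fit of 24 group means, with F tests at each age, pairs of regions at 3 ages and the interaction of region and age. List genes were tested over age within regions. p values were Benjamini-Hochberg adjusted over all genes of a contrast. The script of the tests was tested on simulated data. By the rule for named genes, these are the 3 members, the 5 genes with a symbol nearest to each, list genes that passed in the same direction in at least 3 regions, and up to 2 marker genes a list. The further probe of the TF contig and other list genes given beside counts fall outside it and were chosen after their values were seen. The members, lists and tests were chosen with earlier results of these data known. Alternatives were an offset of 16, the processed signal (each array set by its percentile 75), the authors' series table and normalization within regions. Others were the brightest probe, spots in dim or bright areas left out, no filter and eBayes with trend and robust settings. Slide and replicate blocks, fits on single ages and leaving out each array were also run. Figures were drawn with matplotlib 3.10.9.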

Additional observations from a re-analysis of the deposited data

Results flagged for a closer look

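In brainstem at 145 d, replicate 3 had the lowest TF level, 17.14, apart from the other 3 arrays at 17.59 to 17.68. It was the only array found outlying in 67 groups of 4 arrays tested over the 3 genes, and about 1 in 20 such groups is expected to show one by chance. The change from 80 d to 145 d differed between regions for CX32, over a range of 2.40, and for TF, over a range of 3.07, by the interaction test of limma. The CX32 call did not hold with the processed signal.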

How the results depend on the processing

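The direction of all differences between 80 d and 145 d and between 80 d and 1 d after birth was kept under every alternative run. Sizes moved most for CX32, whose mean over regions, 1.85, was 2.24 with an offset of 16 and 3.45 with the processed signal. With the processed signal TF in brainstem and CRYAB in cortex and hippocampus also moved by more than the spread between arrays, to changes from 80 d to 145 d of 4.38, 3.99 and 5.14. With it the range of the CX32 change from 80 d to 145 d was 1.60 (adjusted p = 0.0649, limma), and r between deviations of TF and CX32 was 0.16. With normalization within each region the range of the CRYAB change was 1.52 and passed (adjusted p = 0.0249). The same setting reversed small differences between regions, at 80 d for TF in hippocampus against cortex (-0.41), for CX32 against cortex in brainstem (-0.37), hippocampus (-0.50) and hypothalamus (-0.46) and for CRYAB in hypothalamus against hippocampus (0.0868), and at 145 d for CX32 in hypothalamus against hippocampus (0.16). In the authors' series table TF in hypothalamus against hippocampus at 145 d was -0.10. None of these had passed in the reported fit, while the reversed CX32 differences of hippocampus and hypothalamus passed (adjusted p = 0.025 and 0.0415). Normalization within each region also gave 26 called pairs of regions in place of 30 (34 with the processed signal), and ended calls against cortex of TF in hypothalamus at 3 ages (adjusted p = 0.0785 at 80 d) and of CX32 and CRYAB as given in the report. The number of chaperone calls that were lower at 1 d after birth, 0 in the reported fit, was 1 with an offset of 16, in the authors' table, with trend and robust settings and with the slide or replicate block, and 2 with the brightest probe. The causes were not tested.

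Leaving out each array in turn kept the calls of the F tests, 6 ages for TF and CRYAB and 5 for CX32. The range of the change from 80 d to 145 d stayed between 2.83 and 3.38 for TF, 2.35 and 2.48 for CX32, and 1.13 and 1.42 for CRYAB. Chaperone calls ranged from 3 to 6 higher and from 0 to 2 lower, CX32 in hypothalamus against hippocampus at 145 d from -0.144 to 0.0899, and CRYAB in the same pair at 80 d from -0.271 to 0.0197. Deviations of same-numbered arrays of different regions correlated with a median r of 0.06 (against -0.05 for other numbers) and down to -0.367, and the labels do not tie a number to an animal, so the arrays were not treated as paired. Whether some numbers mark the same brain is not settled by this. With age and number as a random replicate block no region call changed, the adjusted p of the difference in change from 80 d to 145 d being 0.0127 for TF, 1.81e-07 for CX32 and 0.0839 for CRYAB. With the number as a fixed block within regions the only list count moved by over 1.5 times was the chaperone count of 1 above. Dim signals limit CX32 most, with 2 of 4 cortex arrays at 80 d and 1 of 3 hippocampus arrays at 100 d well above background.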
